A study of Homo sapiens with 4 samples.

Results

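The genes of the mitochondrial genome were compared between shSPTLC2 and shCON cells of Hey-A8, an established human ovarian cancer line. They were taken as every row of the gene count table placed on the mitochondrial chromosome, which gave 37 of 58735 genes: 13 mRNAs, 2 rRNAs and 22 tRNAs. RNA was sequenced from 2 shSPTLC2 libraries, described in the titles and design text as Hey-A8 cells with a stable knockdown of SPTLC2, and from 2 shCON libraries, Hey-A8 cells with the control hairpin. The treatment protocol describes something else for the same libraries, namely GIPZ hairpins against ZDHHC15 or a scrambled hairpin, transfected transiently with a lipid reagent and harvested at 36 h. The groups follow the titles, and the labels state neither how many clones or hairpins were used nor whether the replicates are separate cultures, so every p-value measures only the spread between these libraries. Total counts were 14464784 and 15084966 in shSPTLC2 replicates 1 and 2, and 14999624 and 15017593 in shCON replicates 1 and 2.

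The human mitochondrial genome is a small circle, present in many copies per cell, that is transcribed from both strands as long precursors. Most of its mRNAs and rRNAs are separated by tRNAs, and excision of the tRNAs at both ends by RNase P and the RNase Z ELAC2 releases the RNAs between them. The mRNAs encode subunits of the respiratory complexes I, III and IV and of complex V, the ATP synthase, whose remaining subunits are encoded in the nucleus, while the rRNAs and tRNAs serve the mitochondrial ribosome. SPTLC2 carries out, within serine palmitoyltransferase, the first step in making sphingolipids.

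SPTLC2 had 587 and 662 counts in shSPTLC2 replicates 1 and 2, against 871 and 884 in shCON, or 41.5 ± 2.27 against 59.7 ± 1.37 CPM (counts-per-million, scaled by TMM; SD, n = 2 each). On the log2 scale the fold change, shSPTLC2 over shCON, was -0.52 with an SE of 0.12 (edgeR's quasi-likelihood test, adjusted p = 0.0063, Benjamini-Hochberg over 15313 tested genes). The call was lost without shSPTLC2 replicate 1 (-0.47, adjusted p = 0.134, the highest of its alternatives) and without shSPTLC2 replicate 2 (-0.58, adjusted p = 0.052), and ZDHHC15 had 0 counts in all 4 libraries. The 8 markers of an ovarian carcinoma line summed to 7124 and 6905 CPM in shSPTLC2 and 7664 and 6950 CPM in shCON. KRT8, KRT18, VIM, PAX8 and KRT7 were present, WT1 lay between 6.45 and 10.4 CPM, EPCAM had 3 and 5 counts in shSPTLC2 and 10 and 9 in shCON, and MUC16 was at 0 counts in 3 of the 4 libraries. The 5 leukocyte markers summed to 0.343 to 0.674 CPM, with CD3E at 0, and the 4 erythroid markers to at most 0.068 CPM. The fibroblast list summed to 6.26 and 5.15 CPM in shSPTLC2 and 1.89 and 2.68 CPM in shCON, nearly all of it COL1A1, with DCN and LUM at 0. The endothelial list summed to 110 and 132 CPM in shSPTLC2 and 60.5 and 58.6 CPM in shCON through CDH5, while PECAM1, VWF and TEK together stayed low. CDH5, COL1A1 and PAX8 were called higher in shSPTLC2, with log2 fold changes of 1.09, 1.52 and 0.73, and PECAM1 was called lower, at -1.71, and their part in the results below was not tested.

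The genes of the mitochondrial genome lie almost end to end, which matters for what their counts can hold. All 37 agreed in start, end and strand with GENCODE 29 on GRCh38, 20 neighbouring pairs had 0 bases between them, and 5 pairs overlapped. The largest overlap, 46 bases at chrM:8527-8572 on the plus strand, is shared by MT-ATP8 and MT-ATP6, and in it the start codon of MT-ATP6 and the stop codon of MT-ATP8 are in capitals:
ATP8-ATP6 overlap: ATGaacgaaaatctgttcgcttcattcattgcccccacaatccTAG

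The tRNAs gave the largest changes, and 6 of them were both called and abundant enough in each group to pass the filter on low counts. Their gene sequences are shown in DNA letters from GENCODE 29, 5′ to 3′ on the gene's own strand, with the anticodon in capitals. MT-TV (valine, chrM:1602-1670), MT-TG (glycine, chrM:9991-10058) and MT-TR (arginine, chrM:10405-10469) lie on the plus strand. MT-TN (asparagine, chrM:5657-5729), MT-TY (tyrosine, chrM:5826-5891) and MT-TE (glutamate, chrM:14674-14742) lie on the minus strand.
MT-TV: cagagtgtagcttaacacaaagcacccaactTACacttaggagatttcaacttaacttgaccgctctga
MT-TG: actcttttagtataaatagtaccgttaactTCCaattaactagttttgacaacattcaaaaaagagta
MT-TR: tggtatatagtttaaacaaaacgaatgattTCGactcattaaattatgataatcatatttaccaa
MT-TN: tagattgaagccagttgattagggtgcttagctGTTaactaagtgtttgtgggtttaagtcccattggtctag
MT-TY: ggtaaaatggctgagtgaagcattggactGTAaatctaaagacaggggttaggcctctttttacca
MT-TE: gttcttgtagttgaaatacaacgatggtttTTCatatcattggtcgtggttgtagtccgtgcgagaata

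Mitochondrial RNA took a larger share of the shSPTLC2 libraries in every class. The 37 genes together held 10.1% and 8.56% of the counts in shSPTLC2 replicates 1 and 2, against 5.46% and 6.39% in shCON. Counting error was small beside these differences, with exact 95% binomial intervals of 10.05 to 10.08% and 8.55 to 8.57% in shSPTLC2 and 5.45 to 5.47% and 6.38 to 6.40% in shCON, which cover counting error only. The means were 9.31 ± 1.06% in shSPTLC2 and 5.93 ± 0.656% in shCON (SD, n = 2 each), a ratio of 1.57.

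The mRNAs made up most of this share, with 9.18% and 7.88% of counts in shSPTLC2 and 4.96% and 5.90% in shCON, a ratio of means of 1.57. The rRNAs held 0.840% and 0.645% in shSPTLC2 and 0.488% and 0.470% in shCON, a ratio of 1.55. The tRNAs held 0.0428% and 0.0329% in shSPTLC2 and 0.0138% and 0.0192% in shCON, a ratio of 2.30. In each class both shSPTLC2 libraries exceeded both shCON libraries, and the exact two-sided permutation test gave p = 0.333, the smallest that 2 against 2 libraries allow. In bulk RNA, more mitochondrial RNA per cell and less nuclear RNA per cell cannot be told apart.

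**Figure D1:**
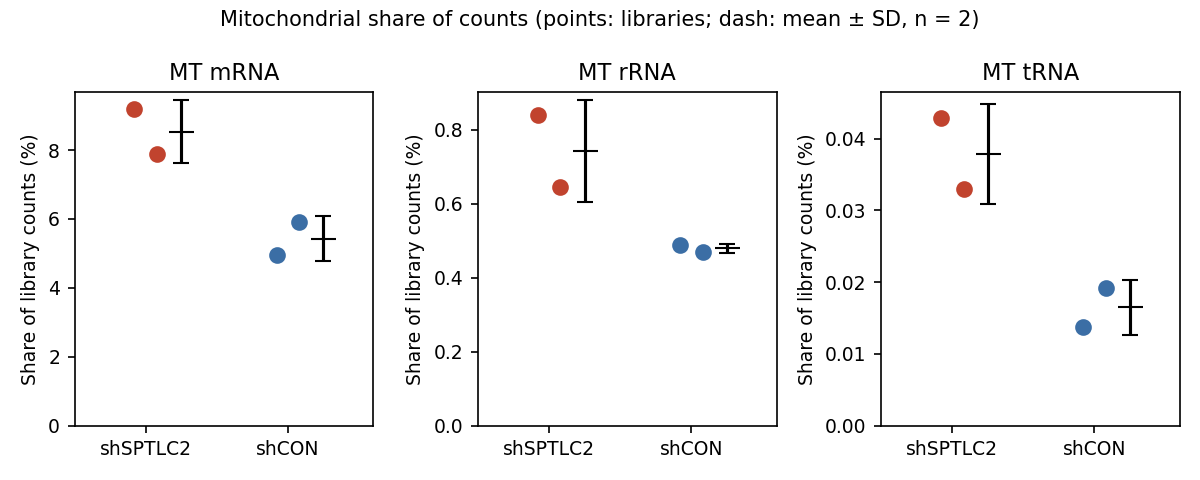
Share of all counts of a library (y, percent) held by mitochondrial (MT) mRNAs, rRNAs and tRNAs in shSPTLC2 and shCON. Points are libraries and the dash with bars is the mean ± SD (n = 2); in each panel both shSPTLC2 points lie above both shCON points.

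Per 1000 mRNA counts there were 4.66 and 4.18 tRNA counts in shSPTLC2 and 2.78 and 3.25 in shCON, so the tRNA counts stood apart from the mRNA counts by group (ratio of means 1.47, exact permutation p = 0.333). The rRNA counts did not, with 91.5 and 81.8 per 1000 mRNA counts in shSPTLC2 and 98.4 and 79.7 in shCON (exact permutation p = 1).

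Gene by gene, 26 of the 37 mitochondrial genes reached the filter on low counts in both groups, and of these 12 were higher in shSPTLC2 and 0 were lower at an adjusted p under 0.05 by edgeR's quasi-likelihood test, beside 10.4% of all tested genes called higher and 9.00% called lower. At an unadjusted p under 0.05 the counts were 17 higher and 0 lower, beside 17.3% and 15.9% of all tested genes, and DESeq2 and limma-voom also called 0 lower. A further 9 tRNAs were tested that reached the filter in shSPTLC2 only, so a count of their calls supports nothing. Of the 26 genes that reached the filter in both groups, 19 were higher in shSPTLC2 without overlap in CPM and 0 were lower. Among all tested genes, 31.3% were higher and 30.2% lower without overlap. These directions hold relative to the rest of the transcriptome, since with the libraries scaled to the mitochondrial mRNA total the log2 fold change of 11 of the 35 genes turned negative. Leaving out each library in turn kept 6 calls in every fit, those of MT-CO1, MT-ND4, MT-TN, MT-TY, MT-TG and MT-TR.

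**Figure D2:**
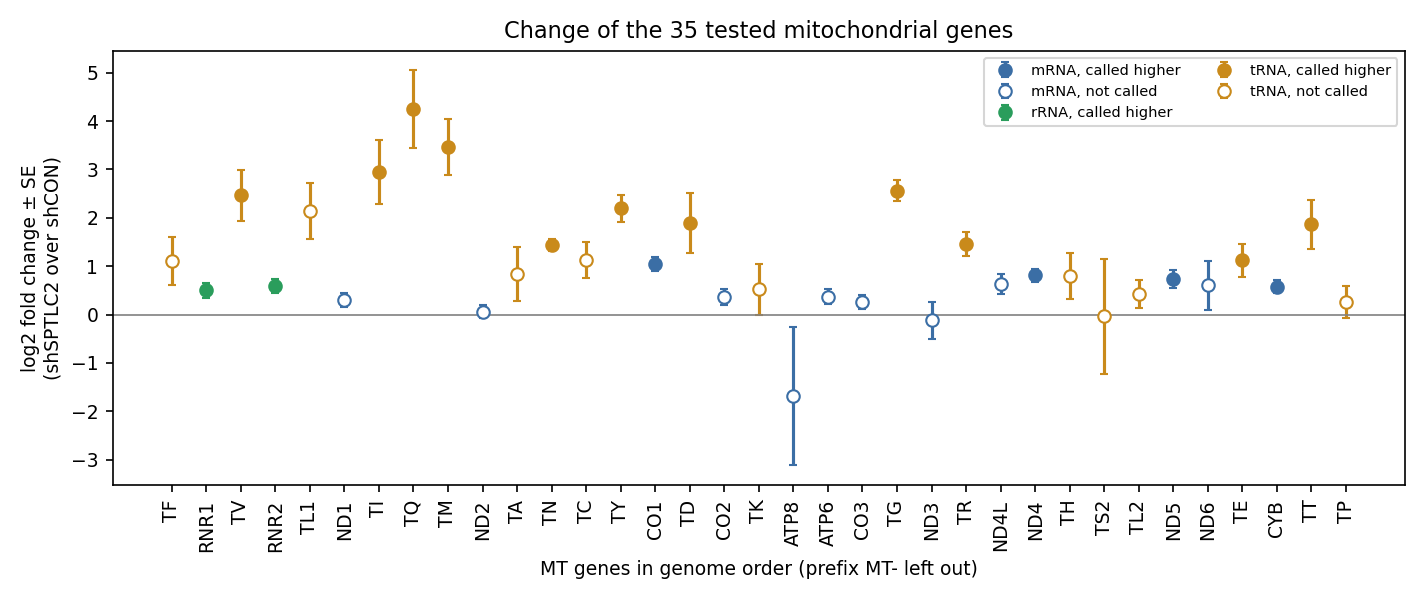
Log2 fold change ± SE (y, shSPTLC2 over shCON) of the 35 tested mitochondrial genes in genome order (x), coloured by class and filled where called. The filled points lie above 0, those of MT-TI, MT-TQ, MT-TM, MT-TD and MT-TT being tRNAs that reached the filter in shSPTLC2 only; the value of MT-TQ rests on 2 counts in shCON and depends on the prior count, and scaled to the mitochondrial mRNA total 11 of the 35 values change sign.

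Complex IV, cytochrome c oxidase, passes electrons to oxygen, and its catalytic subunit MT-CO1 gave the clearest change among the mRNAs. MT-CO1 (ENSG00000198804, chrM:5904-7445) had 403535 and 359814 counts in shSPTLC2 replicates 1 and 2, against 175545 and 188364 in shCON. Both shSPTLC2 libraries lay far above both shCON libraries, at 25444 ± 2828 CPM against 12384 ± 772 CPM (SD, n = 2 each). This was a log2 fold change of 1.04 ± 0.14 (SE; edgeR's quasi-likelihood test, adjusted p = 2.1e-04), which stayed between 0.92 and 1.15 when any library was left out. MT-CO2, which carries the copper site that receives electrons, had 6607 and 5913 CPM in shSPTLC2 and 3906 and 5811 CPM in shCON. MT-CO3, a core subunit without redox centres, had 11165 and 9086 CPM in shSPTLC2 and 7554 and 9278 CPM in shCON. MT-CO2 did not overlap and MT-CO3 did, and neither was called (0.37 ± 0.17 and 0.27 ± 0.15, adjusted p = 0.141 and 0.218 by the same test).

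Complex I, NADH dehydrogenase, takes 7 subunits from the mitochondrial genome, which form the membrane arm that pumps protons. MT-ND4 and MT-ND5, its large antiporter-like subunits, were the members called higher. MT-ND4 (ENSG00000198886) had 179732 and 171696 counts in shSPTLC2 and 93726 and 102231 in shCON, or 12223 and 11187 against 6321 and 7017 CPM, a log2 fold change of 0.81 ± 0.13 (adjusted p = 7.7e-04, edgeR's quasi-likelihood test). MT-ND5 (ENSG00000198786) had 5059 and 4418 CPM in shSPTLC2 and 2203 and 3492 CPM in shCON, a log2 fold change of 0.73 ± 0.19 (adjusted p = 0.023). The shCON replicates differed more for MT-ND5 than for MT-ND4, and the MT-ND5 call was lost without either shSPTLC2 library and with DESeq2 (adjusted p up to 0.199 over the alternatives scaled to the whole library).

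The other 5 complex I mRNAs were not called. MT-ND4L, which shares its transcript with MT-ND4, had 1765 and 1590 CPM in shSPTLC2 and 819 and 1339 CPM in shCON (log2 fold change 0.64 ± 0.21, adjusted p = 0.073, edgeR's quasi-likelihood test). MT-ND6, the only mRNA on the minus strand, had 1149 and 1110 CPM in shSPTLC2 and 459 and 1027 CPM in shCON (0.60 ± 0.51, adjusted p = 0.518). For both, the groups did not overlap but the shCON replicates lay far apart.

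MT-ND1, at the junction with the arm that oxidises NADH, had 3718 and 2695 CPM in shSPTLC2 and 2736 and 2444 CPM in shCON (log2 fold change 0.31 ± 0.15). MT-ND2, another antiporter-like subunit, had 5411 and 4288 CPM in shSPTLC2 and 4192 and 5096 CPM in shCON (0.06 ± 0.14). MT-ND3, a small subunit with a loop near the quinone site, had 1267 and 1141 CPM in shSPTLC2 and 884 and 1729 CPM in shCON (-0.12 ± 0.39). The groups overlapped for these 3 mRNAs.

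Complex III has 1 mitochondrial subunit, cytochrome b, encoded by MT-CYB (ENSG00000198727). It had 6383 and 5634 CPM in shSPTLC2 and 4357 and 3692 CPM in shCON, without overlap, a log2 fold change of 0.58 ± 0.13 (adjusted p = 0.0070, edgeR's quasi-likelihood test). Complex V has 2, the proton channel subunit MT-ATP6 and the small stator-associated subunit MT-ATP8, and neither was called. MT-ATP6 had 8107 and 6938 CPM in shSPTLC2 and 4889 and 6782 CPM in shCON, a log2 fold change of 0.37 ± 0.15 (adjusted p = 0.111).

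Without shCON replicate 2, 11 of the 13 mRNAs were called higher in place of 4, beside 10.4% of all genes tested there. Without shSPTLC2 replicate 1 there were 2, MT-CO1 and MT-ND4, beside 2.56%. Without shCON replicate 1, MT-ATP8 and MT-ND3 were called lower, with log2 fold changes of -2.54 and -0.53, beside 12.6% of all genes called lower. Over the 13 mRNAs the median log2 fold change was 0.37, beside 0.005 over all tested genes, and it was -0.21 with the libraries scaled to the mitochondrial mRNA total.

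Summed by complex, mRNA levels were 30592 and 26428 CPM for complex I in shSPTLC2, against 17613 and 22143 CPM in shCON. Complex IV summed to 45214 and 38443 CPM in shSPTLC2 and 23299 and 28019 CPM in shCON. Both sums did not overlap between groups (exact permutation p = 0.333, the smallest possible), and the ratio of means was 1.43 for complex I and 1.63 for complex IV. Complex V summed to 8142 and 6966 CPM in shSPTLC2 and 4910 and 6966 CPM in shCON, so that shSPTLC2 replicate 2 and shCON replicate 2 were level when rounded (exact permutation p = 0.667).

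The mix of mRNAs shifted toward MT-CO1. Of all mitochondrial mRNA counts, MT-CO1 held 30.4% and 30.3% in shSPTLC2 and 23.6% and 21.3% in shCON, and MT-ND4 held 13.5% and 14.4% in shSPTLC2 and 12.6% and 11.5% in shCON. These 2 were the mRNAs with a higher share in both shSPTLC2 libraries, while 6 had a lower share without overlap and 5 overlapped, in a set of shares that must add up to 100%. MT-CO3 held 12.4% and 11.7% in shSPTLC2 and 15.1% and 15.3% in shCON, and MT-ND2 held 5.99% and 5.53% in shSPTLC2 and 8.35% and 8.38% in shCON. By complex, complex IV held 50.1% and 49.6% of mitochondrial mRNA counts in shSPTLC2 and 46.4% and 46.1% in shCON, and complex I held 33.9% and 34.1% in shSPTLC2 and 35.1% and 36.4% in shCON. The exact permutation test of the MT-CO1 share gave p = 0.333, again the smallest possible.

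**Figure D3:**
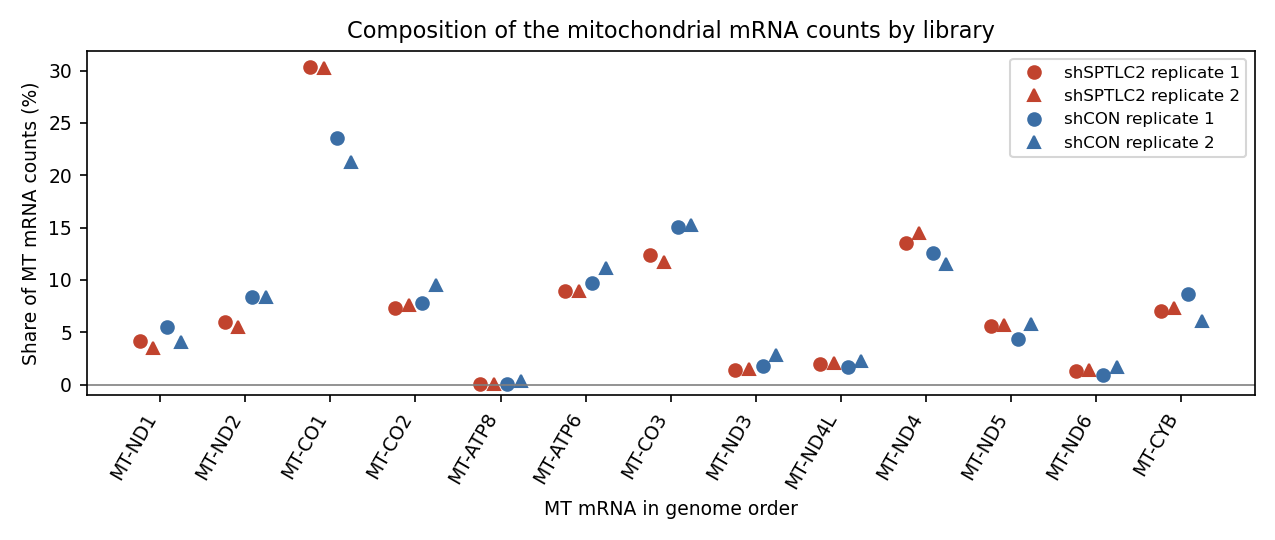
Share of the mitochondrial mRNA counts (y, percent) held by each of the 13 mRNAs in genome order (x), with 1 point per library (colour: group; shape: replicate). The shSPTLC2 points of MT-CO1, at 30.4% and 30.3%, lie above its shCON points, at 23.6% and 21.3%, and those of MT-CO3 and MT-ND2 lie below.

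Levels per length, taken from the deposited FPKM values, put MT-CO1 first among the 37 genes in shSPTLC2, at 16335 ± 1769 FPKM, and at rank 3 in shCON, at 8005 ± 449 FPKM (SD, n = 2 each). MT-CO3 came next in shSPTLC2, at 12785 ± 1820 FPKM, and first in shCON, at 10698 ± 1483 FPKM. MT-ATP6 was at 10935 ± 1170 FPKM in shSPTLC2 and 8537 ± 1906 FPKM in shCON. In shSPTLC2 both MT-CO1 values exceeded both MT-CO3 values, whereas MT-CO3 and MT-ATP6 overlapped.

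In shCON the 4 leading mRNAs, MT-CO3, MT-ATP6, MT-CO1 and MT-CO2, each overlapped with the next. MT-ND4, at 8410 ± 502 FPKM in shSPTLC2 and 4824 ± 326 FPKM in shCON, ranked 5 in both groups. MT-ND5, at 2589 ± 240 FPKM in shSPTLC2 and 1565 ± 491 FPKM in shCON, and MT-ND6, at 2131 ± 45.7 FPKM in shSPTLC2 and 1408 ± 753 FPKM in shCON, were the lowest mRNAs apart from MT-ATP8. They overlapped in shCON and not in shSPTLC2.

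Both rRNAs rose. The large-subunit rRNA MT-RNR2 (ENSG00000210082, chrM:1671-3229) had 7113 and 5547 CPM in shSPTLC2 and 4241 and 4166 CPM in shCON, a log2 fold change of 0.59 ± 0.14 (adjusted p = 0.0077, edgeR's quasi-likelihood test). The small-subunit rRNA MT-RNR1 (ENSG00000211459, chrM:648-1601) had 1153 and 793 CPM in shSPTLC2 and 695 and 682 CPM in shCON, a log2 fold change of 0.50 ± 0.15 (adjusted p = 0.032). Neither overlapped between groups, but shSPTLC2 replicate 1 stood above replicate 2, and without replicate 1 neither was called (adjusted p = 0.229 for MT-RNR2 and 0.501 for MT-RNR1, the highest of all alternatives scaled to the whole library). Relative to the mitochondrial mRNA total their log2 fold changes were -0.03 and -0.12.

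The tRNAs gave few counts, from 2070 in shCON replicate 1 to 6196 in shSPTLC2 replicate 1, and the extraction protocol includes a lithium chloride step whose discarded supernatant holds small RNA. The genes are 59 to 75 bases long, and the sources used here do not say how reads over a tRNA and its neighbour were assigned, so mature tRNA and uncut precursor cannot be told apart. Of the 22, 11 reached the filter in both groups, 9 in shSPTLC2 only and MT-TW and MT-TS1 in neither. Of the 11 that reached it in both groups, 6 were higher in shSPTLC2, 5 were not called and 0 were lower by edgeR's quasi-likelihood test. Of all tested genes, 10.4% were called higher and 9.00% lower. At an unadjusted p under 0.05, 8 of the 11 were higher and 0 lower, beside 17.3% and 15.9% of all tested genes. The 9 that reached it in shSPTLC2 only are described below by their values.

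MT-TG (ENSG00000210164), which lies with 0 bases between it and both MT-CO3 and MT-ND3, had 282 and 218 counts in shSPTLC2 and 43 and 40 in shCON. At 16.7 ± 3.52 CPM against 2.82 ± 0.109 CPM (SD, n = 2 each) the groups were far apart, and the log2 fold change was 2.56 ± 0.22 (adjusted p = 4.4e-06, edgeR's quasi-likelihood test). Its neighbours MT-CO3 and MT-ND3, neither of them called, had log2 fold changes of 0.27 and -0.12. MT-TN, the most abundant tRNA in shSPTLC2, had 1592 and 1391 counts in shSPTLC2 and 565 and 521 in shCON, a log2 fold change of 1.43 ± 0.12 (adjusted p = 4.4e-06). MT-TY had 412 and 344 counts in shSPTLC2 and 110 and 52 in shCON, a log2 fold change of 2.19 ± 0.27 (adjusted p = 8.3e-04). MT-TN and MT-TY are on the minus strand, in the tRNA cluster before MT-CO1, and for both tRNAs the lower shSPTLC2 library held more than 2 times the counts of the higher shCON library.

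MT-TR, between MT-ND3 and MT-ND4L, had 157 and 119 counts in shSPTLC2 and 46 and 52 in shCON, a log2 fold change of 1.46 ± 0.24 (adjusted p = 9.7e-04, edgeR's quasi-likelihood test, and 0.053 with the GC correction, the highest of its alternatives). The calls of MT-TV and MT-TE were less firm. MT-TV, between the 2 rRNAs, had 151 and 57 counts in shSPTLC2 and 23 and 14 in shCON (log2 fold change 2.46 ± 0.52, adjusted p = 0.014), and MT-TE, between MT-ND6 and MT-CYB, had 61 and 46 counts in shSPTLC2 and 29 and 19 in shCON (1.12 ± 0.34, adjusted p = 0.031). Both were without overlap, but MT-TV was lost without shSPTLC2 replicate 1 and with limma-voom, and MT-TE without either shSPTLC2 library, without shCON replicate 2 and with DESeq2.

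The 5 other tRNAs that reached the filter in both groups were not called. MT-TL1 had 33.5 and 16.9 CPM in shSPTLC2 and 7.69 and 3.71 CPM in shCON (log2 fold change 2.14 ± 0.57, adjusted p = 0.106, edgeR's quasi-likelihood test). MT-TC, which overlaps MT-TY by 1 base, had 82.8 and 65.0 CPM in shSPTLC2 and 23.1 and 44.4 CPM in shCON (1.13 ± 0.37, adjusted p = 0.138), and MT-TH had 22.4 and 15.5 CPM in shSPTLC2 and 6.54 and 15.3 CPM in shCON. These 3 did not overlap.

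MT-TP had 68.8 and 65.0 CPM in shSPTLC2 and 38.9 and 73.2 CPM in shCON, and MT-TL2 had 6.19 and 4.11 CPM in shSPTLC2 and 2.90 and 4.74 CPM in shCON. In both the groups overlapped, and shCON replicate 2 was the higher shCON library, as it was for MT-TC and MT-TH.

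Among the scarce tRNAs, MT-TM had 55 and 26 counts in shSPTLC2 and 4 and 3 in shCON, and MT-TI had 113 and 70 in shSPTLC2 and 21 and 2 in shCON. MT-TD had 18 and 13 counts in shSPTLC2 and 3 and 5 in shCON, and MT-TT had 56 and 26 in shSPTLC2 and 16 and 6 in shCON. In these 4 the groups did not overlap. They reached the filter in shSPTLC2 only, so a test of them supports nothing. MT-TQ, which also reached the filter in shSPTLC2 only, had 25 and 18 counts in shSPTLC2 and 2 and 0 in shCON. The ratio per total count was 21.8, with an exact 95% interval for counting error of 5.69 to 186.

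MT-TF had 24 and 16 counts in shSPTLC2 and 10 and 8 in shCON, MT-TK had 13 and 12 against 8 and 9, and MT-TA had 22 and 11 against 7 and 11. MT-TS2 had 46 and 28 counts in shSPTLC2 and 6 and 68 in shCON, the highest value being that of shCON replicate 2. These 4 were not called (adjusted p = 0.131 for MT-TF, 0.307 for MT-TA, 0.530 for MT-TK and 0.988 for MT-TS2, edgeR's quasi-likelihood test). Of the 2 not tested, MT-TW had 10 and 5 counts in shSPTLC2 and 0 and 3 in shCON, and MT-TS1 had 17 and 9 in shSPTLC2 and 4 and 4 in shCON. A count of 0 allows up to 3 counts, or 0.202 CPM in shCON replicate 1 and 0.206 CPM in shCON replicate 2.

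By strand, the 8 minus-strand tRNAs held 70.3% and 76.8% of tRNA counts in shSPTLC2 and 79.0% and 80.7% in shCON, most of it in MT-TN, MT-TC and MT-TP, which together held 61.7% and 68.2% in shSPTLC2 and 71.7% and 77.7% in shCON. Both shares were lower in the shSPTLC2 libraries without overlap (exact permutation p = 0.333 each). As the library kit does not mark strand, reads from RNA of the opposite strand at these places may be included.

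Scaled to the mitochondrial mRNA total, the comparison asks which mitochondrial genes changed relative to the mRNAs as a whole. That scaling moved the median log2 fold change of all tested genes to -0.60, and 0.875% of them were called higher and 44.4% lower. Of the 11 tRNAs that reached the filter in both groups, 6 were called higher and 0 lower (edgeR's quasi-likelihood test; unadjusted, 7 and 0), with log2 fold changes of 1.95 for MT-TG, 1.82 for MT-TV, 1.55 for MT-TY, 1.48 for MT-TL1, 0.86 for MT-TR and 0.81 for MT-TN. MT-TL2 and MT-TP, at -0.16 and -0.31, and MT-TK and MT-TS2 of the scarce tRNAs, at -0.07 and -0.58, were below 0. Among the mRNAs 0 were called higher and 2 lower, as also at an unadjusted p under 0.05, MT-ND2 at -0.54 ± 0.24 and MT-ND3 at -0.68 ± 0.25 (adjusted p = 0.04997 and 0.0193). MT-CO1 was at 0.44 ± 0.22 (adjusted p = 0.095), and neither rRNA was called.

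The shCON replicates differed most from each other for the shortest mRNAs. In shCON replicate 2, 11 of the 13 mRNAs had a higher CPM than in replicate 1, by a log2 ratio of 3.14 for MT-ATP8, 1.16 for MT-ND6, 0.97 for MT-ND3 and 0.71 for MT-ND4L, the 4 shortest, and by 0.13 for MT-CO1 and 0.15 for MT-ND4. MT-ND5, the longest at 1812 bases, was also higher, by 0.66. In shSPTLC2 all 13 mRNAs were higher in replicate 1, with log2 ratios of replicate 2 over replicate 1 between -0.46 and -0.05. Across the 13 mRNAs, which share libraries and transcripts, Spearman's rho between length and this log2 ratio was -0.71 in shCON and -0.12 in shSPTLC2, and that between length and the shSPTLC2 over shCON log2 fold change was 0.57. Without MT-ATP8 the values were -0.64 for the shCON ratio and 0.45 for the fold change.

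The 4 called mRNAs were also the 4 longest, at 1141 to 1812 bases. Nuclear coding genes showed a smaller shift of the same direction between the shCON replicates, with a median log2 ratio of 0.21 over 54 genes of 500 to 1000 bases, 0.07 over 588 genes of 1000 to 2000 bases and -0.03 over 9608 longer genes. The sources used here do not give the fragment sizes of the libraries, and their part in these values was not tested.

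MT-ATP8 shows this most. It had 524 and 431 counts in shSPTLC2 and 309 and 2683 in shCON, so that 1 shCON library held 184 CPM and the other 3 libraries 20.8 to 35.6 CPM. Its log2 fold change was -1.69 ± 1.43 (adjusted p = 0.533, edgeR's quasi-likelihood test), and it was 0.61 without shCON replicate 2 and -2.54 without shCON replicate 1, so no direction can be given. MT-ATP8 and MT-ATP6 share the 46 bases printed above and 1 transcript, but their FPKM ratio was 0.0145 and 0.0133 in shSPTLC2 and 0.0140 and 0.0893 in shCON. The corresponding MT-ND4L over MT-ND4 ratio was 0.670 and 0.659 in shSPTLC2 and 0.601 and 0.885 in shCON.

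**Figure D4:**
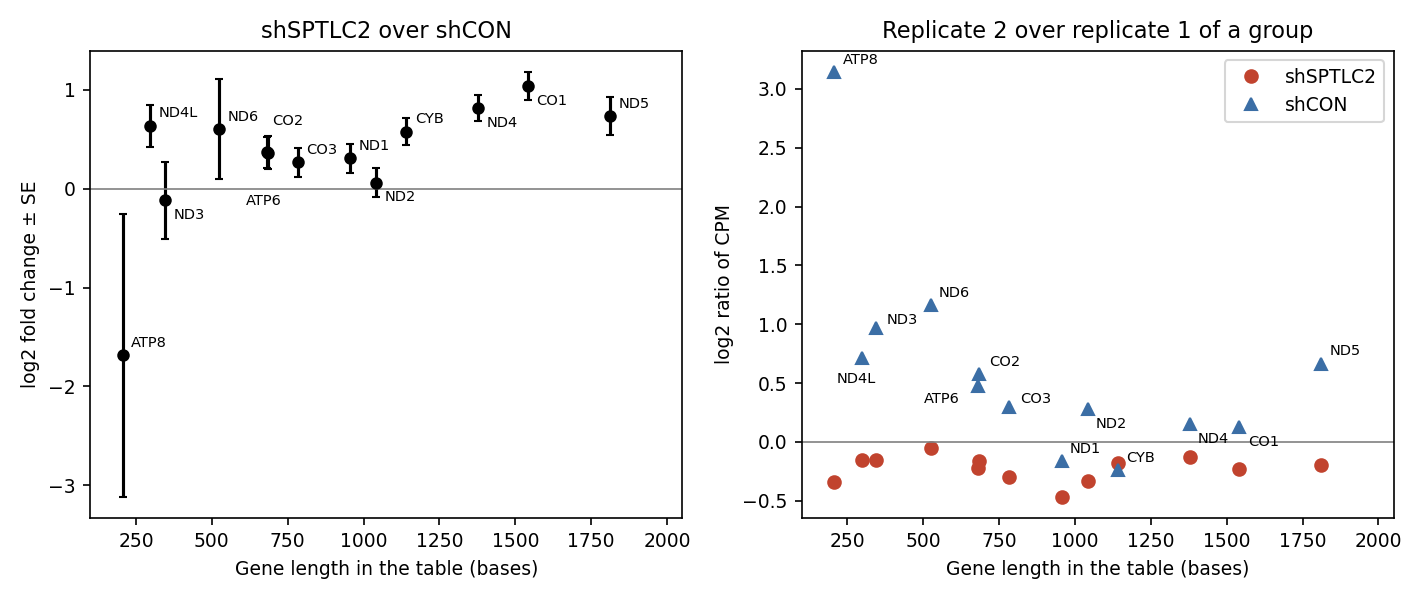
Left, log2 fold change ± SE (y, shSPTLC2 over shCON) of the 13 mitochondrial mRNAs against gene length (x, bases). Right, log2 ratio of CPM between replicate 2 and replicate 1 within each group against the same lengths: the shCON points (triangles) are highest for short genes, up to 3.14 for MT-ATP8, and the shSPTLC2 points (circles) lie in a narrow band below 0.

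Nuclear copies of mitochondrial DNA can take up mitochondrial reads. The table holds 396 rows named as mitochondrial pseudogenes, of which 70 had a count in any library, and 98.6% of their counts fell in 3 copies lying together on chromosome 1. MTATP6P1 (chr1:633696-634376) is 98.5% identical to MT-ATP6, MTND2P28 (chr1:629640-630683) 98.4% to MT-ND2 and MTCO1P12 (chr1:631074-632616) 98.6% to MT-CO1. The 681 aligned bases of MT-ATP6 and MTATP6P1 held 10 differences. A 60-base stretch with the most of them lies at chrM:8642-8701 in MT-ATP6 and at chr1:633811-633870 in MTATP6P1. Both are on the plus strand and from GENCODE 29, with the 3 differences in capitals:
MT-ATP6: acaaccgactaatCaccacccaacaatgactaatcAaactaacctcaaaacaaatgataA
MTATP6P1: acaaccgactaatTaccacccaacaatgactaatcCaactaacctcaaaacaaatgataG

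These 3 copies were higher in shSPTLC2, and since reads could be split between copy and source, values of both are uncertain. MTATP6P1 had 7040 and 7166 counts in shSPTLC2 and 5082 and 4000 in shCON, 5.87% of the counts of MT-ATP6 over the 4 libraries (log2 fold change 0.62 ± 0.12, adjusted p = 0.0025, edgeR's quasi-likelihood test). MTCO1P12 had 1331 and 1355 counts in shSPTLC2 and 609 and 725 in shCON, 0.357% of those of MT-CO1 (0.98 ± 0.12, adjusted p = 1.1e-04). MTND2P28 had 6965 and 5071 counts in shSPTLC2 and 4176 and 4112 in shCON, 7.21% of those of MT-ND2 (0.51 ± 0.14, adjusted p = 0.025), where MT-ND2 itself was not called.

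MTND4P12 on chromosome 5, with 79 and 38 counts in shSPTLC2 and 14 and 13 in shCON, was called higher, and MTND1P23, with 23 and 21 counts in shSPTLC2 and 19 and 10 in shCON, was not. Adding the copies to the mitochondrial genes left the difference in their share of counts at 3.42 percentage points, against 3.39 without them.

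Nuclear genes transcribe, cut, modify and maintain mitochondrial RNA and DNA. Of 61 such genes in 5 lists, 2 were called higher and 5 lower, beside 10.4% and 9.00% of all tested genes, and their median log2 fold change was -0.05. None of the 8 transcription and nucleoid genes was called by edgeR's quasi-likelihood test (unadjusted, 0 higher and 1 lower). TFAM, the packaging and transcription factor of mitochondrial DNA, had 76.8 and 77.6 CPM in shSPTLC2 and 96.0 and 95.8 CPM in shCON (log2 fold change -0.31 ± 0.11, adjusted p = 0.0505), and the mitochondrial RNA polymerase POLRMT had 108 and 115 CPM in shSPTLC2 and 112 and 96.9 CPM in shCON (0.09 ± 0.11).

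Among 14 genes of mitochondrial DNA replication and nucleotide supply, the thymidine kinase TK2 fell, with 5.85 and 7.75 CPM in shSPTLC2 and 13.6 and 15.9 CPM in shCON (log2 fold change -1.12 ± 0.19, adjusted p = 0.0013, edgeR's quasi-likelihood test). RNASEH1, which removes RNA from RNA-DNA hybrids, fell to 26.05 and 30.30 CPM in shSPTLC2, against 36.15 and 47.29 CPM in shCON (-0.57 ± 0.15, adjusted p = 0.014). The 12 others, the polymerase POLG among them at -0.22 ± 0.13, were not called.

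Of the 4 cleavage genes, ELAC2, which cuts the 3′ ends of tRNAs, fell slightly, with 104 and 107 CPM in shSPTLC2 and 133 and 131 CPM in shCON (log2 fold change -0.33 ± 0.10, adjusted p = 0.038, edgeR's quasi-likelihood test). TRMT10C, HSD17B10 and KIAA0391, the subunits of mitochondrial RNase P, were not called, at -0.25 ± 0.13, -0.16 ± 0.14 and 0.04 ± 0.19. The cut at the other end of each tRNA is theirs.

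Of 14 genes of RNA stability, polyadenylation and decay, FASTKD1 rose, with 42.0 and 43.0 CPM in shSPTLC2 and 29.3 and 26.9 CPM in shCON (log2 fold change 0.60 ± 0.12, adjusted p = 0.0041, edgeR's quasi-likelihood test). LRPPRC and SLIRP, which together stabilise mitochondrial mRNAs, were at -0.24 ± 0.13 and -0.43 ± 0.19 and not called. Of 21 modification genes, GTPBP3, an enzyme of tRNA wobble-base modification, rose by 0.40 ± 0.13, while the RNA methyltransferases NSUN2 and NSUN4 fell, at -0.48 ± 0.11 and -0.42 ± 0.12 (adjusted p = 0.0055 for NSUN2, 0.021 for NSUN4 and 0.042 for GTPBP3).

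Of 7 tested regulators of mitochondrial biogenesis, PPARGC1B, a coactivator of respiratory genes, rose to 27.0 and 22.9 CPM in shSPTLC2, against 12.5 and 14.6 CPM in shCON (log2 fold change 0.88 ± 0.15, adjusted p = 0.0013, edgeR's quasi-likelihood test). The 6 others were not called. Of 10 tested genes of the mitochondrial stress response 3 fell, the chaperone HSPA9 at -0.64 ± 0.11 and the stress transcription factors ATF5 at -1.20 ± 0.16 and DDIT3 at -1.19 ± 0.18, and 0 were called higher, beside 9.00% and 10.4% of all tested genes (unadjusted, 4 lower and 2 higher).

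The nuclear genome encodes the partners of the mitochondrial subunits. Of 75 nuclear subunits of complexes I, III, IV and V, 3 were called higher and 7 lower, beside 10.4% called higher and 9.00% called lower of all tested genes. At an unadjusted p under 0.05 by edgeR's quasi-likelihood test, 4 were higher and 18 lower, beside 17.3% and 15.9% of all tested genes. Without overlap in CPM, 5 of the subunits were higher and 35 lower, beside 31.3% and 30.2% of all tested genes. Their median log2 fold change was -0.23, beside 0.37 for the mitochondrial mRNAs and 0.005 for all tested genes. The shCON replicates lay far apart for some subunits, such as NDUFA1 at 22.3 and 49.1 CPM, and close for others, such as NDUFS3 at 54.8 and 56.0 CPM. COX6C, at 142 and 194 CPM, and NDUFC2, at 17.4 and 27.2 CPM, were also higher in shCON replicate 2 than in replicate 1. How far the median and the counts without overlap rest on shCON replicate 2 was not tested. By length, the median of nuclear coding genes was -0.19 over the 54 of 500 to 1000 bases. It was -0.12 over the 588 of 1000 to 2000 bases and -0.02 over the longer ones. The 75 subunit genes had a median length of 2322 bases, and the part of length in their median log2 fold change was not tested. In complex I, NDUFS7 and NDUFS8 of the iron-sulfur chain rose by 0.45 ± 0.15 and 0.37 ± 0.11, and NDUFAB1, NDUFC2 and NDUFS3 fell, at -0.52 ± 0.12, -0.72 ± 0.20 and -0.42 ± 0.12. In complex III the Rieske protein UQCRFS1 fell, at -0.51 ± 0.11, and in complex IV COX6C, at -0.42 ± 0.13. In complex V ATP5F1B of the catalytic head and ATP5F1C fell, at -0.36 ± 0.11 and -0.33 ± 0.11, and ATP5F1D rose by 0.49 ± 0.14. These 10 calls had an adjusted p of 0.0054 for UQCRFS1 up to 0.046 for NDUFS7 by edgeR's quasi-likelihood test. With the libraries scaled to the mitochondrial mRNA total, 39 of the 61 genes of mitochondrial gene expression were called lower and 0 higher, beside the 44.4% of all tested genes called lower under that scaling.

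**Figure D5:**
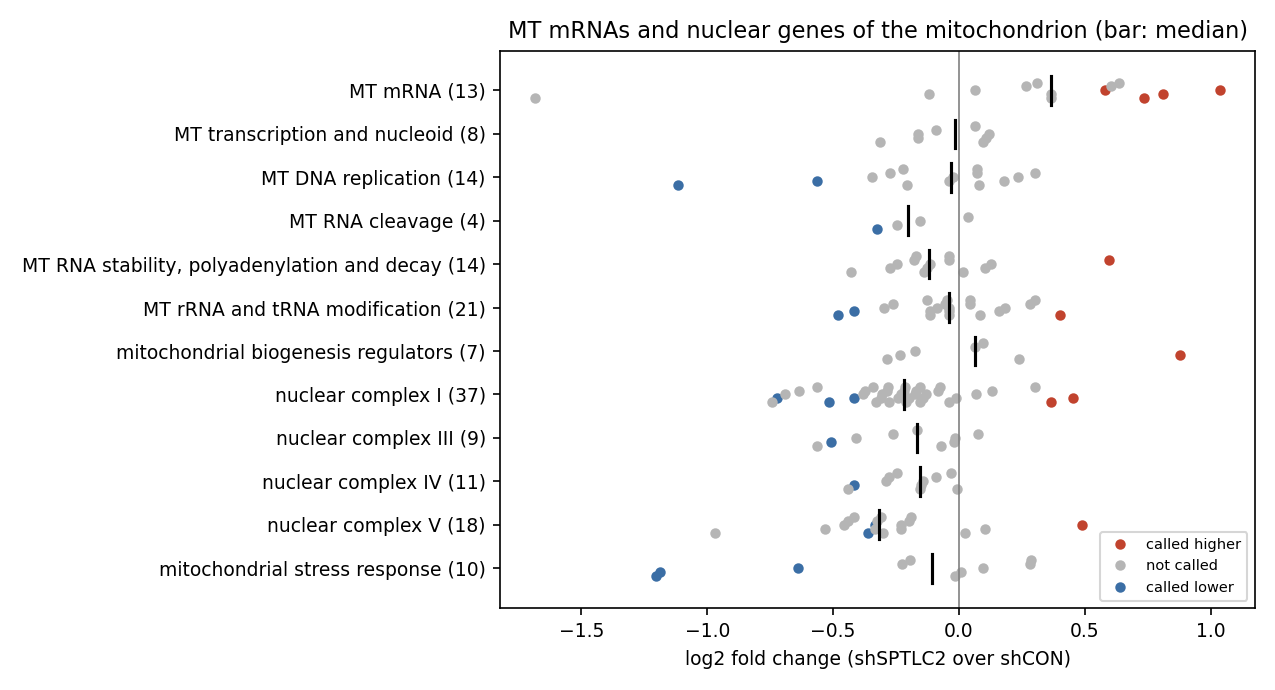
Log2 fold change (x, shSPTLC2 over shCON) of the 13 mitochondrial mRNAs and of the tested nuclear genes in each list (rows, number tested in brackets), coloured by call, with the median of each row as a bar. The mRNA median of 0.37 is the highest of the row medians under scaling to the whole library; scaled to the mitochondrial mRNA total it is -0.21, where the median of all tested genes is -0.60.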

How the data were processed

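RNA of 2 shSPTLC2 and 2 shCON libraries was prepared with a NEBNext Ultra kit, per the labels' protocols. The authors deposited raw read counts per gene and FPKM values; per the submitters' processing notes, the tools were HISAT2, SAMtools and StringTie and the build hg38. The sources used here name neither a counting program nor its strand setting. The deposited FPKM equal each count divided by gene length and by a factor proportional to DESeq2's size factors. Counts were tested in R 4.3.3 with edgeR 4.0.16 (filterByExpr with minimum count 10 and minimum total count 15, TMM, robust quasi-likelihood F test, two-sided), with Benjamini-Hochberg adjustment over all 15313 tested genes and a threshold of 0.05. The SE was taken as the size of the log2 fold change divided by the root of F, and the common biological coefficient of variation was 10.1%. The code was tested on simulated data. Shares of counts were compared by the exact permutation test over libraries (SciPy 1.17.1). Sequences and coordinates came from GENCODE 29, copies were aligned with Biopython 1.88, and anticodons were found through the vertebrate mitochondrial code.

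The members and the nuclear gene lists were chosen with earlier results of these data known. Named were all 37 mitochondrial genes, SPTLC2, ZDHHC15, the 5 most abundant copies, the marker lists and, in each nuclear list, members with the smallest adjusted p or the highest mean and called members. Alternatives were library totals, RLE size factors, scaling from nuclear genes alone or from the mitochondrial mRNA total, no filter, a mean of at least 5 CPM, DESeq2 1.42.0, limma-voom (limma 3.58.1), a non-robust fit, the replicate block, a GC correction, and leaving out each library. Fits without a library assume that a lone library varies like those of the other group.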

Additional observations from a re-analysis of the deposited data

How the results depend on the processing

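The share of counts held by each class was higher in shSPTLC2 with nuclear counts as the denominator, with the nuclear copies added (not applied to tRNAs) and without any 1 library, the difference for all 37 genes ranging from 2.63 to 4.14 percentage points. Relative to the mitochondrial mRNA total, 0 mRNAs were called higher and 2 lower, 0 rRNAs were called higher, 0 nuclear genes of mitochondrial gene expression were called higher and 39 lower, and the median mRNA log2 fold change was -0.21. That scaling also reversed MT-RNR1 (-0.12), MT-RNR2 (-0.025), MT-ND1 (-0.32), MT-ND2 (-0.54), MT-CO2 (-0.21), MT-TK (-0.070), MT-ATP6 (-0.22), MT-CO3 (-0.33), MT-TL2 (-0.16), MT-CYB (-0.041) and MT-TP (-0.31). Without the filter 7 mRNAs were called higher, beside 5.62% of all genes tested there. With a mean of at least 5 CPM, which tests fewer tRNAs, 4 tRNAs were called higher, beside 13.7% of all genes tested there. With DESeq2 7 tRNAs were called higher, beside 7.13%. These counts can include tRNAs reaching the filter in shSPTLC2 only. DESeq2, the GC correction and the replicate block with GC correction each called 1 nuclear gene of mitochondrial gene expression higher in place of 2, and the cause was not tested.

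Leaving out 1 library gave 2 to 11 mRNAs called higher and 0 to 2 lower, 0 to 2 rRNAs higher, 4 to 14 tRNAs higher and 0 to 1 lower, and 0 to 3 nuclear genes of mitochondrial gene expression higher and 0 to 10 lower. The share of all genes called moved over the same fits, from 2.56% to 12.2% higher and from 1.41% to 12.6% lower. The ranges of counts therefore cannot be read as a change in the listed genes alone. Those of the tRNAs can also include tRNAs that reached the filter in shSPTLC2 only. Log2 fold changes that changed sign ranged over these fits from -0.11 to 0.22 for MT-ND2, from -2.54 to 0.61 for MT-ATP8, from -0.53 to 0.44 for MT-ND3, from -0.14 to 0.78 for MT-TP and from -0.93 to 2.58 for MT-TS2. Of these, MT-ATP8 and MT-ND3 were above 0 only without shCON replicate 2. MT-TS2 was also positive with library totals (0.027), limma-voom (0.76) and the GC correction (0.0077).

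Libraries with the same replicate number did not deviate together (correlation -0.0200), so the numbers were not taken as pairs. The replicate block gave 5 mRNAs and 2 rRNAs called higher and 0 lower, beside 11.6% and 10.0% of all tested genes. Its 12 tRNAs called higher, with 0 lower, include some that reached the filter in shSPTLC2 only, so that count supports nothing. With the block MT-TS2 was at 0.25, or 0.29 with the GC correction added. Depth limits the tRNAs, of which 11 had too few counts in shCON to reach the filter there.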
